A study of Mus musculus with 2 samples.

Results

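The genes of class I antigen presentation were followed across infiltrating immune cells of the mouse colon in experimental colitis, a bowel inflammation brought about on purpose. The 10 members were taken from both count matrices by gene symbol, out of 32285 genes: the heavy chains H2-K1 and H2-D1, the light chain B2m, the peptide transport and loading genes Tap1, Tap2 and Tapbp, the inducible proteasome subunits Psmb8, Psmb9 and Psmb10, and the transactivator Nlrc5. Cells came from C57BL/6 mice in 2 libraries, 1 labelled CKO and 1 labelled WT, and by its title the study concerns T cells without RPA1. Both groups had colitis. The sources used here give neither the promoter that drives the Cre, nor the deleted exons, nor how many mice went into a library. With 1 library per label there was no replicate and no test. What goes with the label cannot be told apart from what goes with the animals, their preparation or the library. Intervals are exact, at 95%, and cover counting error only, and ratios put CKO over WT. CKO and WT stand for the library so labelled.

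Class I molecules display short peptides from inside the cell to CD8 T cells, and natural killer cells read them as a sign of self. A heavy chain pairs with beta-2 microglobulin in the endoplasmic reticulum. The TAP1 and TAP2 subunits form the transporter that brings peptides in from the cytosol, and tapasin, encoded by Tapbp, bridges this transporter to the empty class I molecule. The peptides come largely from the proteasome. Interferon-gamma replaces its 3 constitutive catalytic subunits, encoded by Psmb5, Psmb6 and Psmb7, with the inducible subunits encoded by Psmb8, Psmb9 and Psmb10. NLRC5 enters the nucleus and drives class I genes through the RFX, CREB and NF-Y factors bound to their promoters, as CIITA does for class II genes. Interferons raise most of these genes, in part through IRF1, and lymphocytes carry class I at high levels at rest.

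Of the 10 members, 7 lie on chromosome 17 (GRCm38, GENCODE vM21) within the major histocompatibility complex. H2-K1 (ENSMUSG00000061232) lies on the minus strand at chr17:33996017-34000347 and H2-D1 (ENSMUSG00000073411) on the plus strand at chr17:35262730-35267499. Tapbp (ENSMUSG00000024308) lies at chr17:33915899-33929292. A block of 34.3 kb holds Psmb9 (ENSMUSG00000096727, chr17:34181987-34187764, minus strand), Tap1 (ENSMUSG00000037321, chr17:34187553-34197225), Psmb8 (ENSMUSG00000024338, chr17:34197721-34201454) and Tap2 (ENSMUSG00000024339, chr17:34203527-34216321). B2m (ENSMUSG00000060802) lies at chr2:122147686-122153083, Psmb10 (ENSMUSG00000031897) at chr8:105935735-105938444 and Nlrc5 (ENSMUSG00000074151) at chr8:94434356-94527272. Psmb9 and Tap1 run away from each other on opposite strands, and their gene models overlap by 212 bases at their 5′ ends. B2m overlaps Patl2 and Tapbp overlaps Zbtb22, and whether counting used the strand is not stated. Heavy chain genes resemble one another. Among 90-base windows of the last 500 bases of the annotated transcripts, 2.31% for H2-K1 and 8.93% for H2-D1 also occur in transcripts of other genes, mostly of other class I genes. None of the windows of the other 8 members do. Counts of both heavy chains are less certain than those of the other members.

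RefSeq promoter windows (GRCm38.p6), 250 bases before to 50 after the start of the gene, were matched for 8 members by symbol (the first of 2 entries for H2-K1), and Tap2 and Nlrc5 are named only. The 4 windows shown are those of both heavy chains, the light chain and the divergent Tap1 and Psmb9 pair, searched for elements through which interferon, NF-kappa B and the NLRC5 complex are known to act on class I genes. H2-K1 and H2-D1 hold all of the kinds searched but GAAANNGAAA and TTCNNNGAA, the core of the gamma-activated site. B2m holds no kappa B core, and Tap1 holds TGACG and CCAAT alone. TTCNNNGAA matched 1 of the 8 members, Psmb8, whose window is not shown, and 8.30% of all promoter windows. Capitals mark matches on either strand to GAANNGAAA or GAAANNGAAA (interferon response cores), GGGNNTTCCC (a kappa B core), TGACG (the core of the CREB site) and CCAAT (bound by NF-Y), with N for any base. The letters were chosen after the windows had been seen. No match of one motif overlaps a match of another in these 4 windows.
H2-K1 (chr17:34000298-34000597, minus strand): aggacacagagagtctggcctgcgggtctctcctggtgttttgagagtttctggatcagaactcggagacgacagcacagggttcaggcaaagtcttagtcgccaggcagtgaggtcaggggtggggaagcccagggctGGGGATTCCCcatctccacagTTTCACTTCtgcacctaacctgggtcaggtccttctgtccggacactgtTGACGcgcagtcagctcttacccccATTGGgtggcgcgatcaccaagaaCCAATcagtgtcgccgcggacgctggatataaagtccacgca
H2-D1 (chr17:35262844-35263143, plus strand): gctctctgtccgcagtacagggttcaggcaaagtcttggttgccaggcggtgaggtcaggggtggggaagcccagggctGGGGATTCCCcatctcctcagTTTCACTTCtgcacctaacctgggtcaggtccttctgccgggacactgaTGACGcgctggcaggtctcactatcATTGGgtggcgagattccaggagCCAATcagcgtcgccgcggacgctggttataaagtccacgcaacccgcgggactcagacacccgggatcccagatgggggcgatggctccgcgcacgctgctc
B2m (chr2:122147437-122147736, plus strand): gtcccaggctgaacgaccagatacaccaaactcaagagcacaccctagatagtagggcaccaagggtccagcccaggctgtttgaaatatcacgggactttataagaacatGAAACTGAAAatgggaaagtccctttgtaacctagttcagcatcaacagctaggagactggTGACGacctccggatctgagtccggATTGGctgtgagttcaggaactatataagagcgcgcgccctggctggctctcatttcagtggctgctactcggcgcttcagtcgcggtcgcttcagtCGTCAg
Tap1 (chr17:34187306-34187605, plus strand): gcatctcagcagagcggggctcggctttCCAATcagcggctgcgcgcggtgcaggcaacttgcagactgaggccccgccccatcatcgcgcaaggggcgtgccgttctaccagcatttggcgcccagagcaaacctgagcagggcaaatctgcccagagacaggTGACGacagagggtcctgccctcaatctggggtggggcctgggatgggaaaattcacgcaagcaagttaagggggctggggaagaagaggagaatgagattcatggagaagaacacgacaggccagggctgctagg

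The windows of H2-K1 and H2-D1 line up with a shift of 60 bases at 73.3% of their bases, with a longest shared run of 47 bases. Both hold the kappa B core, the GAANNGAAA core, TGACG and CCAAT on both strands in the same order. The GAANNGAAA core lies from -90 to -82 in H2-K1 and from -150 to -142 in H2-D1, counted from the annotated start. B2m holds the other interferon core, GAAANNGAAA, from -139 to -130, with TGACG and CCAAT closer to the start. The Tap1 window is also the promoter of Psmb9 read from the other strand. Their starts are 226 bases apart and their windows share 275 bases, with 1 TGACG and 1 CCAAT in common. Over all 32851 promoter windows of this length, 7.52% held GAANNGAAA, 3.44% GAAANNGAAA, 1.75% GGGNNTTCCC, 20.8% TGACG and 37.4% CCAAT. A match is a stretch of letters and was not tested as a binding site.

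In CKO there were 57740083 UMIs over 11311 barcodes (medians per barcode: 3338 UMIs, 1160 genes), and in WT 18627050 UMIs over 2972 barcodes (4083 UMIs, 1377.5 genes). UMIs are unique molecular identifiers, each standing for 1 captured transcript. Cells were clustered without the members and named by fixed markers, and 9 classes had 20 or more cells under each label. There were 605 CKO and 370 WT T-like cells, 291 and 29 NK-like, 286 and 108 ILC2-like, 110 and 35 ILC3-like, 5075 and 1133 B-like, 516 and 220 plasma-like, 288 and 25 dendritic-like, 808 and 24 monocyte and macrophage-like, and 1803 and 182 neutrophil-like cells. A low-UMI cluster left without a name held 0.384% of cells labelled CKO and 15.4% of those labelled WT, and clusters with markers of several lineages held 6.07 and 7.35%. The libraries shared 6 barcodes. T cell markers summed to 3861 CPM (UMIs per 1000000 UMIs of the class) in CKO and 4111 CPM in WT T-like cells, against 9.71 and 19.7 CPM in CKO and WT B-like cells, 1031 and 849 CPM in NK-like and 1121 and 1133 CPM in ILC2-like cells. Rpa1, encoding the large subunit of replication protein A, was at 53.9 CPM in CKO and 35.6 CPM in WT T-like cells, which goes against the label. Tags read at the 3′ end check nothing where the deletion lies elsewhere in the gene, so the labels are unchecked and every direction given for CKO rests on them. S100a8, a neutrophil gene found as free RNA in droplets, was at 54155 CPM in CKO and 20178 CPM in WT neutrophil-like cells. In T-like, NK-like, ILC, B-like and plasma-like cells it was at 34.0 to 143 CPM in CKO and 5.21 to 16.8 CPM in WT. In proportion to S100a8, neutrophil RNA would add 0.657 CPM of Tap1 to CKO and 0.222 CPM to WT B-like cells, where 277 and 193 CPM were measured.

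Every member had at least 20 UMIs over both libraries in each of the 9 classes. The heavy chains and B2m, abundant everywhere, were within 1.22-fold between the labels in all classes except for H2-K1 in dendritic-like cells. Tap1, Tapbp and Nlrc5 were higher in CKO in 9 of 9 classes, although under another scaling Tap1 turned below 0 in T-like cells, Tapbp in T-like and plasma-like cells, and Nlrc5 in ILC3-like cells, monocyte and macrophage-like cells and neutrophil-like cells. In each of these cases the interval held 0. Tap2, which forms the transporter with Tap1, was higher in 6 of 9. Of the inducible proteasome subunits, Psmb8 and Psmb9 were higher in CKO in neutrophil-like cells and Psmb9 and Psmb10 in monocyte and macrophage-like cells, while none had an interval above 0 in T-like, NK-like, ILC3-like or plasma-like cells. Of the 90 ratios (10 members in 9 classes), 37 had an interval above 0 on the log2 scale, 10 an interval below 0 and 43 an interval that held 0. No ratio reached 1.5-fold lower, and 11 reached 1.5-fold higher. The same fold was passed by many genes at these depths, more so where WT cells were few. In T-like, NK-like, ILC3-like, B-like and plasma-like cells 0 of 10 members reached 1.5-fold higher, against 12.7, 23.6, 13.8, 5.45 and 6.72% of all genes read there. In ILC2-like cells it was 3 of 10, against 11.4% of all genes. In dendritic-like cells it was 2 of 10 against 24.3%, in monocyte and macrophage-like cells 4 of 10 against 26.5%, and in neutrophil-like cells 2 of 10 against 23.1%. The shares in dendritic-like and neutrophil-like cells are close to those of all genes. For the lower direction, 0 of 10 members in each class stood against 7.83% of genes in T-like, 13.2% in NK-like, 12.7% in ILC2-like, 13.1% in ILC3-like, 7.03% in B-like, 9.53% in plasma-like, 14.7% in dendritic-like, 20.3% in monocyte and macrophage-like and 25.6% in neutrophil-like cells.

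**Figure D1:**
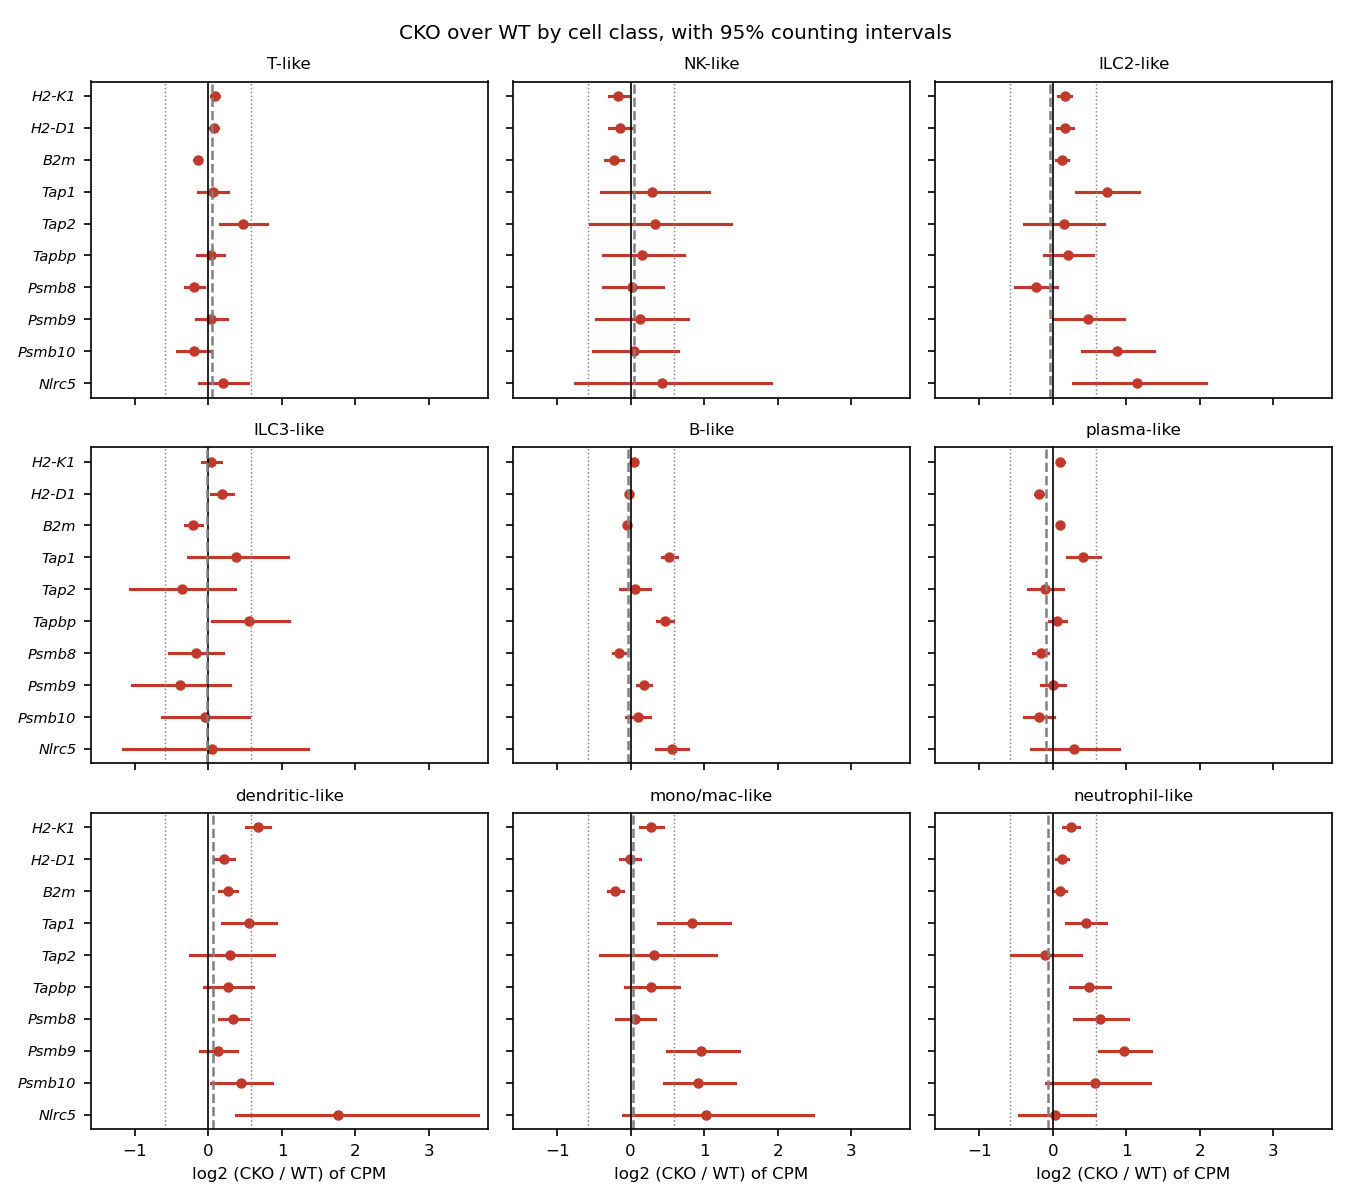
Log2 ratio of CPM, CKO over WT, for the 10 members (rows) in 9 cell classes (panels). Points are ratios, bars 95% counting intervals, the dashed line the median of all genes read, and dotted lines mark 1.5-fold; H2-K1, H2-D1 and B2m lie near 0 in most panels, while Tap1, Tapbp and Nlrc5 lie right of 0 in all 9 as scaled here, but not under each other scaling for T-like, ILC3-like, plasma-like, monocyte and macrophage-like and neutrophil-like cells.

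The median member ratio was 0.35 on the log2 scale in neutrophil-like cells, where the median of all genes read was -0.07. It was 0.31 in dendritic-like cells (all genes 0.06), 0.30 in monocyte and macrophage-like cells (0.03) and 0.19 in ILC2-like cells (-0.04). With each cell given the same weight, the median in monocyte and macrophage-like cells was -0.02, with 24 WT cells. In the other 5 classes it lay between -0.01 and 0.09, where the medians of all genes lay between -0.09 and 0.05. With the class of each cell taken from its own markers instead of its cluster, the median in T-like cells was 0.29 in place of 0.05. Across libraries of the same label no spread can be given, and neither the number of cells nor the depth of the WT myeloid classes allows small differences to be read.

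H2-K1 encodes the classical heavy chain K, which binds peptide. Its level ran from 1638 CPM in B-like to 3194 CPM in ILC3-like cells labelled CKO, and from 1240 CPM in dendritic-like to 3522 CPM in NK-like cells labelled WT. NK-like and ILC3-like cells held the highest levels in both libraries, and their intervals did not overlap those of T-like cells in either library. T-like cells stood at 2543 CPM in CKO and 2401 CPM in WT, and were not told apart from ILC2-like cells at 2578 CPM in CKO and 2307 CPM in WT. In dendritic-like cells H2-K1 was at 1975 CPM in CKO and 1240 CPM in WT, a log2 ratio of 0.67 (0.51 to 0.84), the 1 heavy chain ratio past 1.5-fold. Of those CKO cells, 50 belonged to a cluster led by Fscn1, Tbc1d4 and Ccl22, genes of mature migratory dendritic cells, that held 0 WT cells. H2-K1 was at 3252 CPM there. In the other cluster, with 238 CKO and 25 WT cells, it was at 1773 CPM in CKO and 1240 CPM in WT, a log2 ratio of 0.52 (0.35 to 0.68), under 1.5-fold.

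H2-D1 encodes the heavy chain D. It was highest in neutrophil-like cells, at 3244 CPM in CKO and 2977 CPM in WT, and lowest in plasma-like cells, at 909 CPM in CKO and 1039 CPM in WT. Plasma-like cells were told apart from B-like cells, the next lowest, and B-like from T-like cells, by intervals that did not overlap in either library. The order of H2-D1 over the classes was therefore not that of H2-K1. The 2 heavy chains differ most by rank in neutrophil-like cells, which were first of 9 for H2-D1 in both libraries and ranked 6 of 9 in both for H2-K1. Between the labels the log2 ratio of H2-D1 ran from -0.19 in plasma-like to 0.21 in dendritic-like cells.

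B2m encodes the light chain shared by all class I molecules. It was lowest in B-like cells, at 1979 CPM in CKO and 2047 CPM in WT, and reached 3721 CPM in CKO and 3488 CPM in WT plasma-like cells. In CPM, plasma-like cells thus combined a high B2m level with the lowest H2-D1 level of the 9 classes. CPM is a share of all UMIs of a class, and the median CKO depth was 16032 UMIs in plasma-like and 2926 UMIs in B-like cells. Each low plasma-like level given here is therefore low as a share, and UMIs per cell were not compared. The log2 ratio of B2m lay between -0.23 in NK-like and 0.26 in dendritic-like cells. Its interval was above 0 in 4 classes and below 0 in the other 5. Outside the 9 classes, 30 acinar-like cells labelled CKO, a pancreatic cell type, held 444 CPM of B2m and 224 CPM of H2-K1. Of that B2m 45.4% lay in 1 cell, and how much of it is free RNA was not tested.

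Tap1, the first subunit of the peptide transporter, varied more over the classes than the chains it serves. It was at 415 CPM in CKO and 304 CPM in WT neutrophil-like cells, and at 70.1 CPM in CKO and 52.6 CPM in WT plasma-like cells, which is 5.93 and 5.78 times lower. Plasma-like cells were told apart from all other classes. Tap1 was higher in the library labelled CKO in each class, with an interval above 0 in 6 of 9. In monocyte and macrophage-like cells it was at 340 CPM in CKO and 190 CPM in WT, a log2 ratio of 0.84 (0.37 to 1.35). In ILC2-like cells it was at 173 CPM in CKO and 104 CPM in WT, a log2 ratio of 0.74 (0.32 to 1.17). In B-like cells, the class with the most summed UMIs, it was at 277 CPM in CKO and 193 CPM in WT, a log2 ratio of 0.52 (0.42 to 0.62). In T-like cells it was at 177 CPM in CKO and 169 CPM in WT, and the interval held 0.

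Tap2, its partner, was counted less often and was higher in CKO in 6 of 9 classes. It was at 134 CPM in CKO and 109 CPM in WT dendritic-like cells, and at 50.9 CPM in CKO and 54.6 CPM in WT plasma-like cells. No neighbours in its order of classes were told apart. T-like cells were the 1 class whose interval lay above 0, with 91.8 CPM in CKO and 66.1 CPM in WT, a log2 ratio of 0.47 (0.16 to 0.80). In B-like cells, where Tap1 was higher, Tap2 was at 54.3 CPM in CKO and 52.1 CPM in WT, a log2 ratio of 0.06 (-0.14 to 0.26). The intervals of Tap1 and Tap2 in B-like cells do not overlap.

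Tapbp, encoding tapasin, was at 405 CPM in CKO and 333 CPM in WT monocyte and macrophage-like cells and at 226 CPM in CKO and 163 CPM in WT B-like cells. Its level varied less than 2.1-fold over the classes in either library. The ratio was above 0 in 9 of 9 classes, with intervals above 0 in B-like cells at 0.47 (0.36 to 0.58), neutrophil-like cells at 0.50 (0.23 to 0.78) and ILC3-like cells at 0.55 (0.04 to 1.09). In T-like cells it was 0.03 and turned to -0.07 when immunoglobulin, ribosomal and mitochondrial genes were left out of the total, a scaling that also turned H2-K1, H2-D1, Tap1 and Psmb9 below 0 there.

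Psmb8 encodes an inducible catalytic subunit of the proteasome. It was highest in dendritic-like cells, at 1080 CPM in CKO and 856 CPM in WT, followed by monocyte and macrophage-like cells at 659 CPM in CKO and 631 CPM in WT. These 2 classes were not told apart from each other, and both were told apart from all lymphoid classes, which lay between 239 and 379 CPM in CKO and between 280 and 432 CPM in WT. Psmb8 was lower in the library labelled CKO in T-like, B-like and plasma-like cells, with log2 ratios of -0.19, -0.16 and -0.17 and intervals below 0. In neutrophil-like cells it was at 255 CPM in CKO and 163 CPM in WT, a log2 ratio of 0.64 (0.28 to 1.03).

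Psmb9, which starts 226 bases from Tap1 on the other strand, was also highest in dendritic-like cells, at 600.0 CPM in CKO and 546 CPM in WT. In neutrophil-like cells it was at 340 CPM in CKO and 173 CPM in WT, a log2 ratio of 0.97 (0.62 to 1.34). In monocyte and macrophage-like cells it was at 369 CPM in CKO and 190 CPM in WT, a log2 ratio of 0.96 (0.49 to 1.47). In B-like cells it was at 238 CPM in CKO and 209 CPM in WT, a log2 ratio of 0.18 (0.09 to 0.28), below that of Tap1 with no overlap of intervals. In B-like cells this divergent pair of genes thus differed between the labels to unlike degrees.

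Psmb10, the remaining inducible subunit, was at 367 CPM in CKO and 195 CPM in WT monocyte and macrophage-like cells, a log2 ratio of 0.91 (0.45 to 1.42), and at 142 CPM in CKO and 77.3 CPM in WT ILC2-like cells, a log2 ratio of 0.88 (0.40 to 1.38). It was lowest in neutrophil-like cells in WT, at 47.8 CPM, and in plasma-like cells in CKO, at 64.9 CPM. No interval of Psmb10 lay below 0.

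Summed over UMIs, the 3 inducible subunits outnumbered the 3 constitutive ones in every class. The ratio of sums was 8.62 (7.78 to 9.57) in CKO and 6.12 (3.99 to 9.75) in WT neutrophil-like cells, above every other class in both libraries by intervals that did not overlap. In dendritic-like cells it was 3.66 (3.45 to 3.89) in CKO and 3.16 (2.59 to 3.86) in WT. Plasma-like cells, at 1.87 in CKO and 1.67 in WT, were among the lowest. The neutrophil ratio rests on few constitutive UMIs, 412 in CKO and 25 in WT. Psmb5, Psmb6 and Psmb7 were each lowest there of the 9 classes, at 25.7, 23.1 and 28.5 CPM in CKO. In WT they were at 22.6, 12.6 and 27.7 CPM. By the geometric mean of both libraries, neutrophil-like cells ranked 9 of 9 for Psmb8 and Psmb10 and 3 for Psmb9. The high ratio thus went with low constitutive levels, not with high levels of all inducible subunits. Between the labels, ILC2-like cells were at 2.44 (2.06 to 2.90) in CKO and 1.75 (1.44 to 2.14) in WT, with intervals that overlap. B-like cells were at 2.65 (2.55 to 2.75) in CKO and 2.32 (2.18 to 2.48) in WT, with intervals that do not. In T-like cells it was 2.36 in CKO and 2.43 in WT, with overlapping intervals. Since 3′ tags count ends of transcripts, this ratio was read between classes and not as a ratio of proteins.

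**Figure D2:**
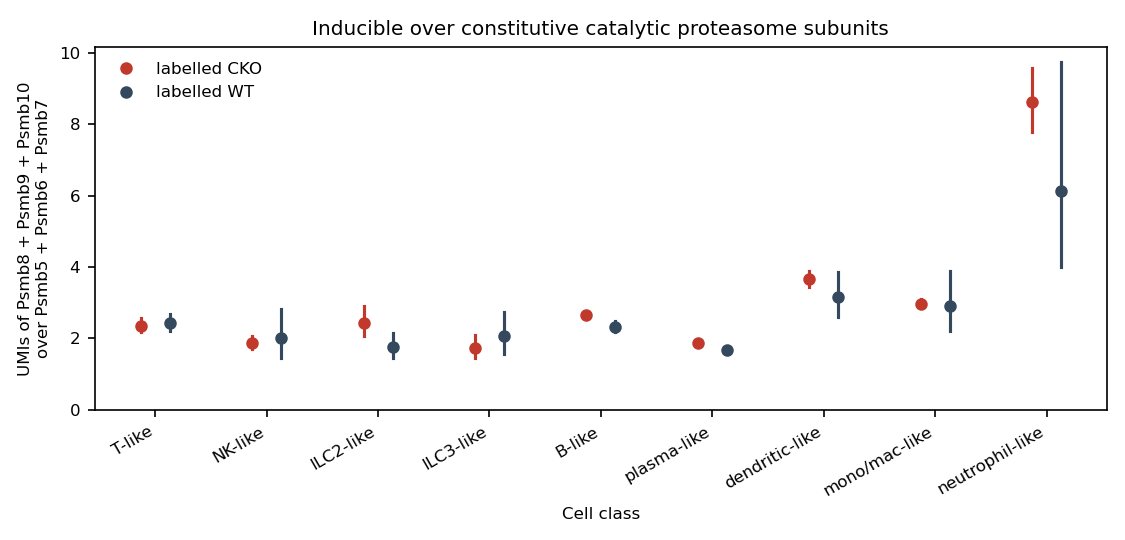
UMIs of Psmb8, Psmb9 and Psmb10 over UMIs of Psmb5, Psmb6 and Psmb7 by cell class, labelled CKO (red, left) and labelled WT (dark, right), with 95% binomial intervals. Neutrophil-like cells stand apart at 8.62 in CKO and 6.12 in WT, with the lowest levels of Psmb5, Psmb6 and Psmb7. The other classes lie between 1.67 and 3.66.

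Nlrc5, the transactivator, was the least counted member. It was at 90.1 CPM in CKO and 88.0 CPM in WT neutrophil-like cells, and at 9.95 CPM in CKO and 8.16 CPM in WT plasma-like cells, which is 9.05 and 10.8 times lower. T-like cells, at 76.5 CPM in CKO and 66.6 CPM in WT, were second in the order and were told apart from B-like cells, the third. In B-like cells Nlrc5 was at 61.4 CPM in CKO and 41.7 CPM in WT, a log2 ratio of 0.56 (0.34 to 0.78). In ILC2-like cells it was at 51.2 CPM in CKO and 23.2 CPM in WT, a log2 ratio of 1.14 (0.28 to 2.09). In dendritic-like cells 134 UMIs in CKO and 4 UMIs in WT gave 51.3 and 15.1 CPM, a log2 ratio of 1.77 (0.38 to 3.66). In monocyte and macrophage-like cells 379 and 6 UMIs gave a log2 ratio of 1.03 (-0.11 to 2.48), which was -0.17 when each cell was given the same weight.

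Shares of cells with a UMI were also read, after each cell was thinned to 1000 UMIs. Tap1 was seen in 32.3% (30.1 to 34.5) of CKO and 26.3% (19.6 to 33.8) of WT neutrophil-like cells. In B-like cells it was seen in 23.5% (22.3 to 24.7) in CKO and 17.6% (15.4 to 20) in WT, or 55.5 and 52.4% before thinning, at median depths of 2926 and 3982 UMIs. Plasma-like cells gave 8.41% in CKO and 5% in WT, or 57.0 and 56.4% before thinning, at 16032 and 20589 UMIs. Of the acinar-like CKO cells 2 of 27, or 7.41%, held Tap1 after thinning, at 3211 UMIs. Whether the UMIs in acinar-like cells are free RNA was not tested. Nlrc5 was seen in 5.91% (5.27 to 6.61) of CKO and 3.43% (2.44 to 4.67) of WT B-like cells, against 1.17% of CKO and 0.455% of WT plasma-like cells. In ILC2-like cells it was seen in 5.56% of cells in CKO, with a lower bound of 3.14%, and in 0 of 107 cells in WT, which allows a share of cells with a UMI of up to 2.80% by 3 counts and of up to 3.39% by the exact interval, so the intervals overlap. Before thinning these shares were 14.7% in CKO and 13.9% in WT. Tap2 was seen in 5.51% (4.89 to 6.18) of CKO and 4.51% (3.36 to 5.90) of WT B-like cells, close to the 5.68 and 5.45% of plasma-like cells. In dendritic-like cells the share with Tap1 was 28.7% of 279 cells in CKO and 36% of 25 cells in WT, against the direction of the CPM, so no order is read from it. In NK-like cells the shares of Tap1, Tap2 and Nlrc5 also went against the CPM, on 29 WT cells.

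**Figure D3:**
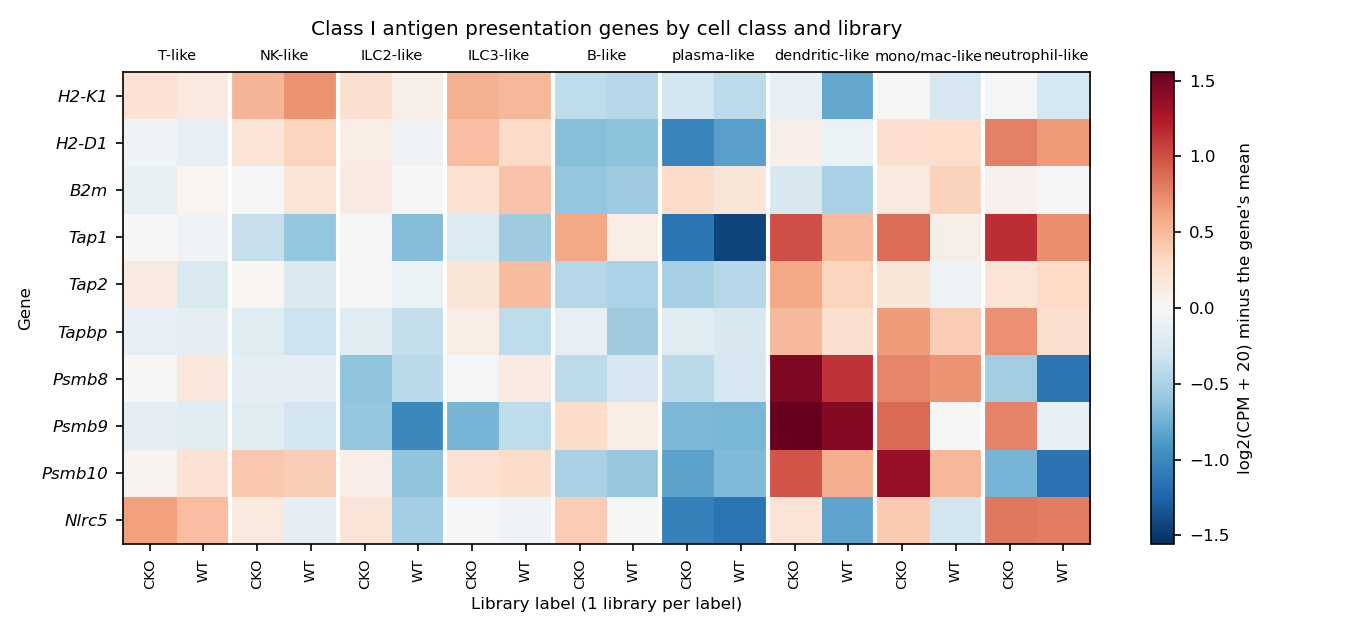
Levels of the 10 members (rows) as log2(CPM + 20) minus the mean of the gene over all columns, for 9 cell classes, each with the library labelled CKO left of the library labelled WT. Dendritic-like cells are highest for Psmb8 and Psmb9, neutrophil-like cells for H2-D1, Tap1 and Nlrc5, and plasma-like cells are low for most members but not for B2m.

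Within B-like cells, 8 clusters held at least 10 cells of each label, and Tap1 was higher in CKO in 8 of 8, with an interval above 0 in 6. In the cluster shared most evenly by the labels (B1, 500 CKO and 497 WT cells, led by Ebf1 and Scd1) Tap1 was at 255 CPM in CKO and 181 CPM in WT, a log2 ratio of 0.49 (0.29 to 0.70). In the interferon cluster (B4, led by Ifi214 and Slfn5) it was at 331 CPM in CKO and 271 CPM in WT. In the cluster led by Serpina3f and Serpina3g (B7) it was at 341 CPM in CKO and 309 CPM in WT. These 2 clusters held the highest Tap1 levels in both libraries, but cluster B2 was not told apart from them. It was at 327 CPM (293 to 363) in CKO and 257 CPM (175 to 362) in WT. Nlrc5 was higher in CKO in 7 of 8 clusters, the exception being B7 with 52.8 CPM in CKO and 83.0 CPM in WT (11 WT UMIs), and its highest CKO level was 97.5 CPM in B4, against 58.8 CPM in WT. Tapbp was higher in CKO in 6 of 8. B2m was higher in CKO in 0 of 8 clusters, with log2 ratios between -0.11 and -0.04, and H2-K1 in 4 of 8. With clusters weighted alike in both libraries, the log2 ratios over B-like cells were 0.44 for Tap1, 0.34 for Tapbp and 0.43 for Nlrc5. Cluster B2 held more S100a8 than the others, at 321 CPM in CKO and 144 CPM in WT, and the part of neutrophil RNA in it was not tested.

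**Figure D4:**
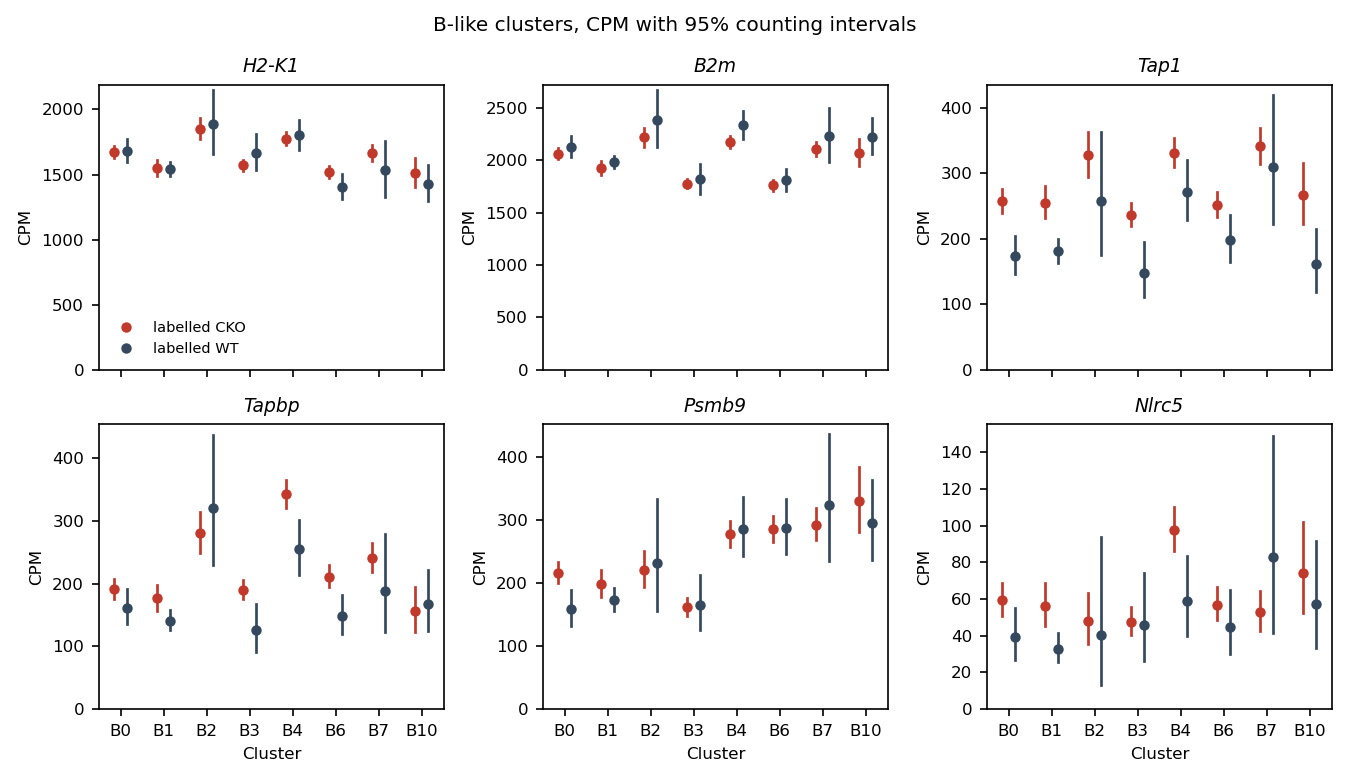
Levels in CPM of H2-K1, B2m, Tap1, Tapbp, Psmb9 and Nlrc5 in the 8 B-like clusters with at least 20 cells of each label, labelled CKO (red, left) and labelled WT (dark, right), with 95% counting intervals. Tap1 is higher in CKO in all 8 clusters and B2m in 0 of 8, while H2-K1 is nearly level between the labels.

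T-like cells as classed by cluster showed no shared shift. The median member ratio was 0.05, or 0.29 with each cell classed by its own markers. In T-like cells 0 of 10 members reached 1.5-fold higher or lower, against 12.7 and 7.83% of all genes. Ifng itself, the cytokine gene best known to raise these members, was at 817 CPM in CKO and 36.2 CPM in WT T-like cells. Whether the members follow Ifng was not tested. Of the 2137 Ifng UMIs in CKO, 1234 came from 1 of 605 cells, and without that cell, left out after the data had been seen, the level was 347 CPM. Over 5 clusters with at least 10 cells of each label, B2m was higher in CKO in 0 of 5 and Tap2 in 5 of 5. In the cluster led by Lef1, Ly6c1 and Tcf7 (95 CKO and 151 WT cells) Tap2 was at 143 CPM in CKO and 62.7 CPM in WT, a log2 ratio of 1.19 (0.54 to 1.83). In the cluster led by Cd163l1, Il17a and Trdc (64 CKO and 42 WT cells) there were 1328 Ifng UMIs in CKO and 0 in WT. That same cell held 1234 of them, and the level was 3685 CPM in CKO with it and 272 CPM without it. The plasma cell transcripts Jchain and Igkc were also among the leading genes of that cluster against the other lymphoid clusters, and their part was not tested. In that cluster B2m was at 3058 CPM in CKO and 4031 CPM in WT, a log2 ratio of -0.40 (-0.53 to -0.27), and Nlrc5 at 33.3 CPM in CKO and 75.8 CPM in WT, a log2 ratio of -1.19 (-2.39 to -0.04). Without that cell B2m was at 3119 CPM and Nlrc5 at 31.8 CPM in CKO. In the Cd8b1 cluster (75 CKO and 54 WT cells) Nlrc5 was at 119 CPM in CKO and 64.4 CPM in WT, a log2 ratio of 0.88 (0.04 to 1.79). H2-K1, Tapbp, Psmb10 and Nlrc5 each had an interval above 0 in at least 1 of the 5 clusters and below 0 in at least 1 other.

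Neutrophil-like cells fell into 6 clusters. Those led by Ngp and Lcn2 (M10, 182 cells) and by Retnlg and S100a8 (M8, 327 cells), genes of granules and of young neutrophils, held 0 WT cells, so the comparison within clusters rests on the other 4. Psmb9 was higher in CKO in 4 of 4 with every interval above 0. In M3 (led by Ccl3 and Hcar2, 331 CKO and 82 WT cells) it was at 359 CPM in CKO and 166 CPM in WT, a log2 ratio of 1.12 (0.57 to 1.71). In M5 (led by G0s2, 378 CKO and 65 WT cells) it was at 334 CPM in CKO and 152 CPM in WT, a log2 ratio of 1.13 (0.46 to 1.89). H2-K1 was also higher in CKO in 4 of 4, with log2 ratios from 0.24 to 0.54, and B2m in 4 of 4, with ratios from 0.10 to 0.48. H2-D1 and Tapbp were higher in 2 of 4. In M4, with 16 WT cells, H2-D1 was at 3255 CPM in CKO and 4167 CPM in WT, and in M9 at 3702 CPM in CKO and 4313 CPM in WT, log2 ratios of -0.36 and -0.22 with intervals below 0. In the cluster led by Rsad2 and Cxcl10 (M9, 275 CKO and 19 WT cells), genes that interferons raise, members were high under both labels. Tap1 was at 589 CPM in CKO and 486 CPM in WT there, and B2m at 4387 CPM in CKO and 3989 CPM in WT. M10 held the lowest CKO levels of H2-K1, at 1578 CPM, of B2m, at 2145 CPM, and of Tap1, at 321 CPM. With the 4 clusters weighted alike in both libraries, 3 members reached 1.5-fold: Psmb8 at 0.66, Psmb9 at 1.04 and Psmb10 at 0.99 on the log2 scale, the last on 19 WT UMIs. Without that weighting it was 2 of 10, where 23.1% of all genes were higher. No share of all genes is given under the weighting, so the count of 3 is not read against one. S100a8 was also higher in CKO in 4 of 4 clusters, and its part was not tested. Nlrc5 was higher in 2 of 4 and lower in M4, at 86.8 CPM in CKO and 212 CPM in WT (9 WT UMIs).

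**Figure D5:**
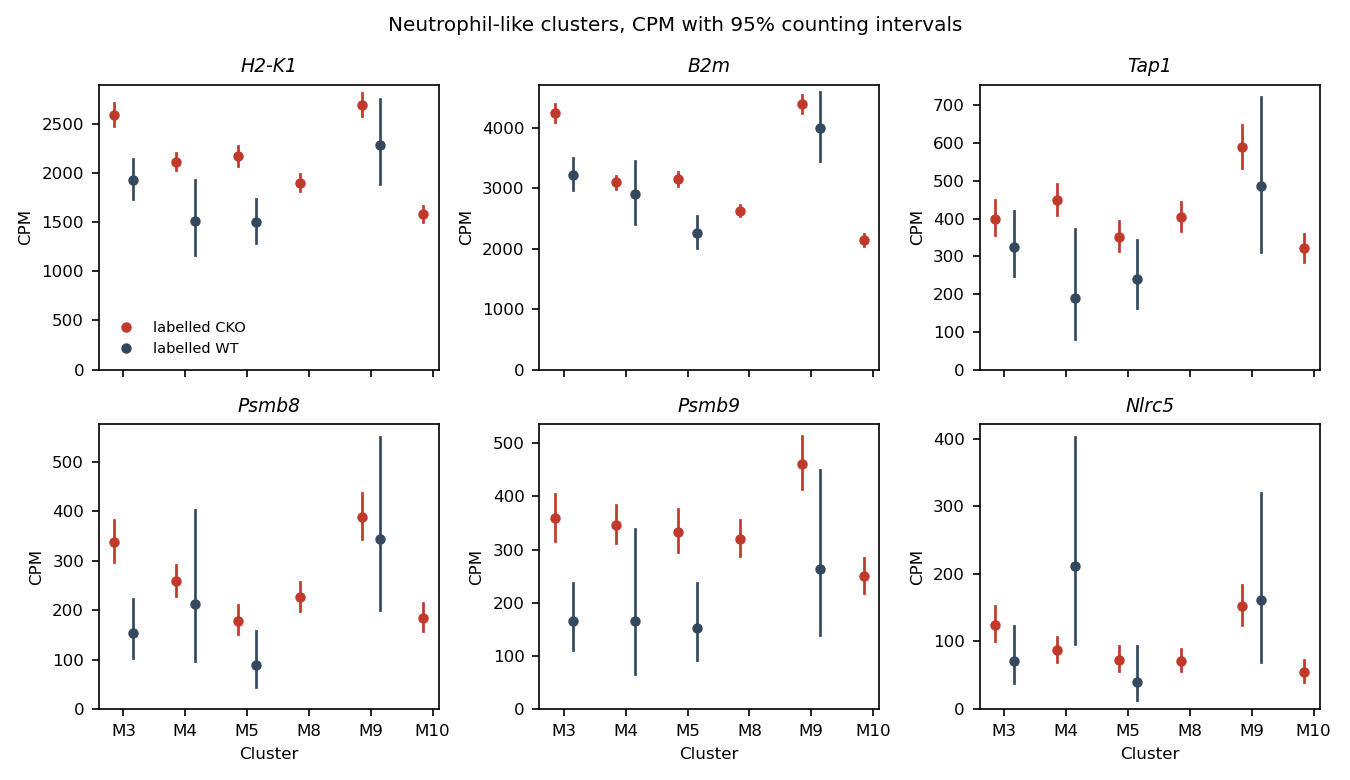
Levels in CPM of H2-K1, B2m, Tap1, Psmb8, Psmb9 and Nlrc5 in the 6 neutrophil-like clusters, labelled CKO (red, left) and labelled WT (dark, right), with 95% counting intervals; M8 and M10 held 0 WT cells. Psmb9 is about level over the CKO clusters except for M9 (462 CPM) and M10 (250 CPM), and lies above WT in each of the 4 shared clusters.

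Monocyte and macrophage-like cells labelled WT numbered 24, of which 20 were in the cluster led by Lyz2, Chil3 and Vcan (M2). In M2 alone, Tap1 was at 349 CPM in CKO and 201 CPM in WT, Psmb9 at 368 CPM in CKO and 194 CPM in WT, and Psmb10 at 377 CPM in CKO and 201 CPM in WT. The log2 ratios there were 0.79, 0.92 and 0.90, close to those of the whole class. Psmb8 was at 689 CPM in CKO and 694 CPM in WT. The inducible subunits were thus unequal in M2, with Psmb8 level and Psmb9 and Psmb10 higher in CKO. In ILC2-like cells Tap1, Psmb10 and Nlrc5 were higher in CKO in both clusters. S100a8, as a mark of free neutrophil RNA, was at 103 CPM in CKO and 10.8 CPM in WT ILC2-like cells. In proportion, neutrophil RNA would bring 0.794 CPM of Tap1 to CKO cells, against 173 CPM measured. This does not cover RNA of other cells. B cell markers summed to 251 CPM in CKO and 309 CPM in WT ILC2-like cells, and the part of B cell RNA was not tested.

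Of 18 listed genes of the interferon-gamma receptor and its targets, 9 of 18 read in B-like cells were at least 1.5-fold higher in CKO and 0 lower, led by Iigp1 at 1.87, Gbp2 at 1.29 and Gbp3 at 1.26 on the log2 scale. These encode guanosine triphosphatases that act on vacuoles of microbes. Of all genes read there, 5.45% were higher. The median of the list was 0.59, against -0.03 over all genes. In monocyte and macrophage-like cells 8 of 18 were higher and 1 lower, where 26.5% of all genes were higher and 20.3% lower. In dendritic-like cells 7 of 18 were higher against 24.3% of all genes, and in neutrophil-like cells 6 of 18 were higher and 1 lower against 23.1 and 25.6%. In T-like cells 0 of 17 were higher and 4 lower, against 12.7 and 7.83% of all genes, among them Gbp5 at -1.01, with a median of -0.34 against 0.05 over all genes. Of the type I interferon list, 5 of 16 were lower and 1 higher in T-like cells, with Ifit2 at 32.9 CPM in CKO and 75.5 CPM in WT. In plasma-like cells 5 of 12 were lower and 1 higher, against 9.53 and 6.72% of all genes. In NK-like, dendritic-like and ILC3-like cells this list went the other way. In NK-like cells 7 of 13 were higher against 23.6% of all genes, and in dendritic-like cells 7 of 16 against 24.3%. In ILC3-like cells 4 of 8 were higher and 1 lower, against 13.8 and 13.1%. Few passed the fold in the remaining classes. In B-like cells 1 of 16 was higher, in ILC2-like cells 1 of 8 and in neutrophil-like cells 2 of 16, against 5.45, 11.4 and 23.1%. In monocyte and macrophage-like cells 1 of 16 was higher and 1 lower, against 26.5 and 20.3%. Irf1, which binds the interferon core of class I promoters, was at 250 CPM in CKO and 162 CPM in WT B-like cells, and at 324 CPM in CKO and 151 CPM in WT dendritic-like cells. In T-like cells Irf1 was lower in CKO, with 533 UMIs in CKO and 477 UMIs in WT giving a log2 ratio of -0.30 (-0.48 to -0.11). Within the 5 T-like clusters with at least 10 cells of each label, however, Irf1 was higher in CKO in 4 of 5. Its interval was above 0 in 1 cluster and below 0 in 1. Gbp2 was likewise higher in CKO in 4 of 5 and Ifit3 in 0 of 5. The cluster led by Lef1, at 466 CPM of Irf1 in CKO and 419 CPM in WT, held 95 CKO and 151 WT cells. How far the mix of clusters sets the class values was not tested.

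Of 8 other class I and class I-like heavy chain genes read in neutrophil-like cells, 4 were at least 1.5-fold higher in CKO and 0 lower. Of all genes, 23.1% were higher and 25.6% lower. The median of the list was 0.71, against -0.07 over all genes. In this list H2-Q7, a nonclassical heavy chain gene, was at 404 CPM in CKO and 176 CPM in WT, with a log2 interval of 0.85 to 1.56. In dendritic-like cells, where H2-K1 was past the fold as well, 5 of 10 were higher and 0 lower, against 24.3 and 14.7% of all genes, with H2-Q7 at 632 CPM in CKO and 253 CPM in WT. In monocyte and macrophage-like cells 5 of 12 were higher and 2 lower, against 26.5 and 20.3% of all genes. In T-like cells 0 of 9 passed the fold, where 12.7% of all genes were higher and 7.83% lower. The constitutive proteasome list, which includes Psmb5, Psmb6 and Psmb7, had 0 of 14 past the fold in T-like, B-like, plasma-like, ILC3-like and dendritic-like cells. Of all genes there, 12.7, 5.45, 6.72, 13.8 and 24.3% were higher and 7.83, 7.03, 9.53, 13.1 and 14.7% lower. In neutrophil-like cells 4 of 14 were higher, where 23.1% of all genes were. The 4 were led by Psma5 at 1.62 (4 WT UMIs) and included Psmb6 at 0.88. Genes of peptide trimming and loading had 0 of 10 past the fold in B-like and T-like cells. There 5.45 and 12.7% of all genes were higher and 7.03 and 7.83% lower. In NK-like cells 4 of 10 were higher, against 23.6% of all genes. In monocyte and macrophage-like cells 5 of 10 were higher and 1 lower, against 26.5 and 20.3%. In neutrophil-like cells 3 of 10 were higher and 2 lower, against 23.1 and 25.6%. Of the class I promoter factors 1 of 16 was higher in B-like cells, Irf1, where 5.45% of all genes were higher. In T-like cells 2 of 16 were higher, Irf8 at 1.45 and Rfxank at 1.35, where 12.7% of all genes were higher. Both shares are close to those of all genes. Class II genes had 0 of 10 past the fold in B-like cells, where 5.45% of all genes were higher and 7.03% lower. Their median there was -0.17. In neutrophil-like cells 5 of 9 were lower, against 25.6% of all genes, among them H2-Aa at a log2 ratio of -1.22 (-1.53 to -0.90). In neutrophil-like cells the medians of this list of other heavy chains and of the class II list thus lay on opposite sides of 0, at 0.71 and -0.72. H2-K1 and H2-D1, which are not in the list of other heavy chains, were at 0.25 and 0.12 there. B cell markers summed to 34.2 CPM in CKO and 103 CPM in WT neutrophil-like cells, the same direction as the class II genes. The part of B cell RNA in the class II values was not tested.

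Across the 18 sums of a class in a library the members did not form 1 pattern. Centred log2 levels of Psmb8 and Psmb10 correlated at 0.82, of Tap1 and Psmb9 at 0.79, and of B2m and Psmb9 at -0.51 (Pearson, as a description; both libraries of a class share their cell type). Against the mean of all members, 8 of them had r between 0.57 and 0.79, apart from H2-K1 at 0.19 and B2m at -0.01. Each member is part of that mean, which raises its r, so these values do not show that the 8 vary together. Of 4794 other genes, the 8 most like that mean were Gnb2 (0.93), Arf5 (0.92), Rbbp8 (0.92), Gnai2 (0.91), Arpc4 (0.90), Psme2 (0.90), Gapdh (0.90) and Cdc42 (0.89). Psme2 encodes a subunit of the interferon-inducible proteasome activator PA28, Gnb2 and Gnai2 subunits of G proteins, Arf5 and Cdc42 small guanosine triphosphatases, and Arpc4 a subunit of the actin-nucleating Arp2/3 complex. Without plasma-like cells 5 of these 8 were still among the closest 8.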

How the data were processed

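The deposited values are UMI counts per gene and barcode, stored as integers, not normalized, per the file headers, and made with a 10x 3′ kit (v3.1) per the labels' protocols. The headers name Cell Ranger 6.0.1, while mm10, Seurat 3.2.3 and Cell Ranger 5.0.0 come from the submitters' processing notes. No source states the strand used in counting. Barcodes with under 200 genes or over 20% mitochondrial UMIs were left out, and Scrublet marked 213 CKO cells (1.91%) and 1 WT cell (0.0342%), so doublets in WT were hardly marked. That kept 10942 and 2924 cells. Both libraries were clustered together and then within lymphoid, B-lineage and myeloid compartments with scanpy 1.11.5 (Leiden, resolution 1, seed 0), without class I and class II genes among the variable genes. Clusters were named from 25 marker classes with at least 3 detected markers. UMIs were summed per class and library as CPM, and a ratio was read at 20 or more UMIs. Intervals treat UMIs as independent draws. The design allows no test, and none was made. The ratio and its interval were tested on simulated data.

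All members were reported, and from each of 8 related lists up to 3 genes with the largest ratios past 1.5-fold. The 8 genes of like pattern had at least 50 CPM in 1 sum, and 20 CPM was added before logs. Irf1, Ifng, S100a8 and Rpa1 were named for context, and 1 other gene is not reported here. Members and lists were chosen with earlier results of these data known. Mixed and low-UMI clusters were set apart after the data had been seen. H2-T10 and Mx1 of the lists were not matched. Alternatives covered clustering, doublets, the mitochondrial limit, class assignment, scaling, cluster weights and UMI minimums.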

Additional observations from a re-analysis of the deposited data

How the results depend on the processing

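Of 77 medians of the member ratios under alternatives, 76 moved by less than the typical counting error of a member. The exception was 0.29 in T-like cells with the class of each cell taken from its own markers. That error is wide where WT cells are few: with each cell given the same weight the median in monocyte and macrophage-like cells was -0.02 in place of 0.30. The sign of the median also turned under at least 1 alternative in T-like cells (lowest -0.06), ILC3-like cells (highest 0.23) and plasma-like cells (lowest -0.03). Counts of members at least 1.5-fold higher differed by over 1.5 times in 7 cases among 190 counts in either direction. With cells classed by their own markers it was 1 in NK-like and 1 in B-like cells, and B-like cells also had 1 with the members kept in the variable genes and 1 with ratios centred on the median of all genes. With clusters weighted alike, a weighting added for myeloid and ILC2-like cells after seeing the data, it was 1 in dendritic-like cells, and 3 in neutrophil-like cells against 2 and 3 in monocyte and macrophage-like cells against 4. With each cell given the same weight it was 2 in monocyte and macrophage-like and 4 in neutrophil-like cells, and Nlrc5 in monocyte and macrophage-like cells was reversed, at -0.17. In ILC3-like cells 1 member was lower, both by own markers and with cells weighted alike. Without plasma-like cells 5 of the 8 genes of like pattern were shared. The cause was not tested. Classing by own markers gave no value for dendritic-like cells. Of 770 single ratios under alternatives, 46 left the interval of the main ratio. Leaving out immunoglobulin, ribosomal and mitochondrial genes lowered the median of all genes in T-like cells to -0.05, against 0.05, and giving each cell the same weight raised it in monocyte and macrophage-like cells to 0.20, against 0.03. Classes of 24 to 35 WT cells limit what can be read. No paired analysis was possible because each label has 1 library.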
